A study of Mus musculus with 15 samples.

Results

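The data were read for 10 imprinted genes: *Dlk1*, *Meg3*, *Rian*, *Mirg*, *Airn*, *Igf2r*, *H19*, *Igf2*, *Peg3* and *Mest*. They were taken by name, and the read counts of their annotated transcripts were summed per gene in each of the 15 libraries. Of the 10 genes, 7 passed a filter on low counts that 10603 of all 55266 genes passed, and *H19*, *Igf2* and *Mest* did not. The cells were NIH3T3, an established line of mouse embryonic fibroblasts, carrying a doxycycline-inducible histone fusion. Starved cells were given PDGF, a growth factor, and the stated purpose was to learn which transcription depends on mTORC1 in the nucleus. There were 5 groups of 3 libraries. H2A-TerminaTOR cells, in which histone H2A carries an inhibitor of mTORC1 into the nucleus, received cycloheximide and PDGF. H2A-mCherry cells, the control line, received cycloheximide and PDGF, rapamycin and PDGF, PDGF alone, or no PDGF. Cycloheximide blocks protein synthesis, and rapamycin inhibits mTORC1 throughout the cell. Every group shares the NIH3T3 background and a fusion built on H2A. The sources used here give no doses, times or length of starvation and do not say whether either line is a single clone, and TerminaTOR and its cell line cannot be told apart from one another.

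An imprinted gene is read mainly from the copy inherited from one parent. In the mouse, *Dlk1*, *Igf2*, *Peg3*, *Mest* and *Airn* are expressed from the paternal copy, and *Meg3*, *Rian*, *Mirg*, *H19* and *Igf2r* mainly from the maternal copy. They lie in clusters in which a long non-coding RNA and protein-coding genes share a control region: *Dlk1* with *Meg3*, *Rian* and *Mirg*, *Igf2* with *H19*, and *Igf2r* with *Airn*, whose transcription silences *Igf2r* on the paternal copy. Many imprinted genes act in fetal growth and are switched down after birth. The files hold no allele information, so each value is the sum over both copies.

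The counted reads came from narrow parts of these genes, and the part differed from gene to gene. The files count reads per transcript, and transcripts without a base of their own were nearly empty. Coordinates are 1-based on GRCm38, from the GENCODE M21 annotation. *Dlk1* (ENSMUSG00000040856.17, chr12:109452823-109463336, plus strand) encodes a transmembrane relative of the Notch ligands that marks preadipocytes. Of its 1033 reads in the 15 libraries, 99.4% were on Dlk1-207, whose 790 bases shared with no other exon, chr12:109454195-109454984, lie in an intron of 7 other *Dlk1* transcripts. *Peg3* (ENSMUSG00000002265.16, chr7:6703892-6730431, minus strand) encodes a large zinc finger protein. All of its 4436 reads were on Peg3-204, a transcript annotated as a retained intron, whose 4528 bases not shared with another exon lie at chr7:6721933-6723186 and chr7:6723216-6726489. The protein-coding Peg3-201 had 0 reads on 5503 unique bases, which allows up to 3 reads by counting error alone. Dlk1-210, with 82 unique bases, had 6 reads. How reads were assigned to transcripts is not known here. The share of unspliced RNA was not tested. On the counted stretches, reads from these transcripts and from unspliced RNA of the same gene look alike. A value for *Dlk1* or *Peg3* is therefore not a level of the coding mRNA. The bases where each counted stretch meets an exon of other transcripts are shown for that reason, with the intron's splice-site dinucleotide in capitals. They are the end of the *Dlk1* stretch, chr12:109454955-109454984 on the plus strand, and the start of the *Peg3* stretch, chr7:6726460-6726489 on the minus strand, read from the GENCODE transcripts.
Dlk1-207, last 30 bases of the counted stretch: tgaattgtgtaccttttttctcttcctcAG
Peg3-204, first 30 bases of the counted stretch: GTgagtgatacacctcagagtaccacaccc

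**Figure D1:**
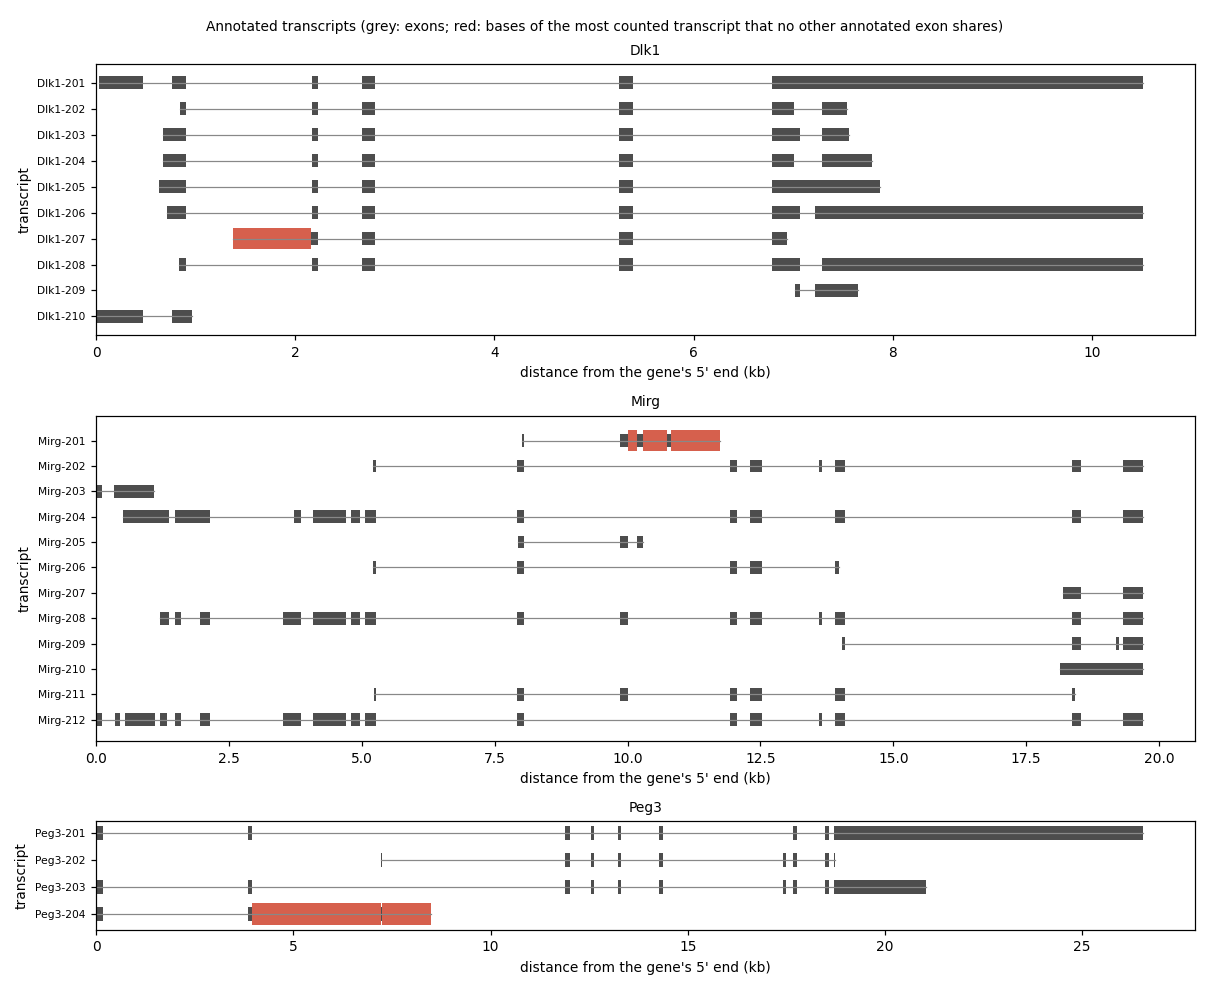
Annotated transcripts of *Dlk1*, *Mirg* and *Peg3* by distance from the 5′ end of the gene (kb), with exons in grey and, in red, the bases of the most counted transcript that no other annotated exon shares. The red stretches fall in introns of some, not all, of the other transcripts of the same gene: 790 bases of Dlk1-207, 1556 of Mirg-201 and 4528 of Peg3-204.

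The counts of the other genes also rest mostly on 1 or a few transcripts. *Meg3* (ENSMUSG00000021268.17, chr12:109541001-109571726, plus strand) begins 77665 bases downstream of *Dlk1*, and 91.2% of its 36988 reads were on Meg3-209. Most of the unique bases of Meg3-209 lie in its long last exon. *Rian* (ENSMUSG00000097451.10, chr12:109603940-109661716), the host of many small nucleolar RNAs, was split over several transcripts, with 47.4% of 1689 reads on Rian-209. Another *Rian* transcript, Rian-203, had 466 reads and no unique base in this annotation. *Mirg* (ENSMUSG00000097391.8, chr12:109729764-109749460), the host of a microRNA cluster, had 97.4% of 1594 reads on Mirg-201. The 1556 unique bases of Mirg-201 lie in introns of other *Mirg* transcripts, so *Mirg* values describe that part and not every *Mirg* transcript. *Igf2r* (ENSMUSG00000023830.14, chr17:12682406-12769664, minus strand) encodes the receptor that carries IGF2 and mannose-6-phosphate proteins to lysosomes, and 99.9% of its 109462 reads were on the coding Igf2r-201. *Airn* (ENSMUSG00000078247.4, chr17:12741311-12860136, plus strand) starts inside *Igf2r* and runs antisense to it. The 7 stretches of 30 bases or more that belong to a single *Airn* transcript all lie at least 9626 bases upstream of the start of *Igf2r*, outside the bases that the 2 genes share. Strand was not used in the counting as far as the files show: of 582 transcripts whose own bases are covered only by exons of the other strand, none (0) averaged 10 reads or more, whereas 15.4% did among the 63613 transcripts with over 200 unique bases on either strand.

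When the most counted transcript of each gene was searched, 2 microRNA hairpins lay inside an exon of it: Mir377, in *Mirg*, and Mir770, in *Meg3*. The less counted transcripts were not searched. *Mirg* spans 14 microRNA hairpins in the RefSeq table for GRCm38.p6, and 1 of them, Mir377, is inside the counted exon of Mirg-201, between its stretches of counted bases. Their mature products are shown to place the counted RNA on the microRNA map, with the seed, bases 2 to 8, in capitals. The 4 seeds all differ. The libraries were made from poly-A RNA and give no level of a mature microRNA.
mmu-miR-377-5p: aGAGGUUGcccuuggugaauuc
mmu-miR-377-3p: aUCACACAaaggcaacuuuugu
mmu-miR-770-5p: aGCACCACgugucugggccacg
mmu-miR-770-3p: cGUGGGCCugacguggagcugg

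Depth and cell identity set the frame for these values. Library totals ran from 3466202 to 6777780 counts. All 10 fibroblast markers had reads, with summed levels of 4621 to 5001 CPM (reads scaled to a common library size, here with TMM factors) in the rapamycin libraries and 7277 to 9106 CPM in the other 12. Of 8 macrophage markers 5 had a read, with *Adgre1*, *Itgam* and *Tyrobp* at 0 in all libraries. The macrophage sum, mostly *Cd14* and *Lyz2*, was 17.4 to 23.1 CPM in TerminaTOR cells, 17.7 to 26.0 CPM under cycloheximide, 16.8 to 18.7 CPM under rapamycin, 15.9 to 18.8 CPM with PDGF and 6.69 to 11.3 CPM without it. Epithelial (0.472 to 3.86 CPM, 2 of 5 with a read, *Epcam*, *Krt18* and *Krt19* at 0) and endothelial sums (1.30 to 4.71 CPM, 5 of 5 with a read) were low in every group. Mitochondrial transcripts took 5.90% to 6.24% of counts in the 6 cycloheximide libraries and 8.19% to 11.6% in the other 9, and the part of these shifts in the results was not tested. Fewer cells expressing a gene and less RNA per cell cannot be told apart in bulk libraries.

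Which imprinted genes moved differed between the treatments. Called means an edgeR quasi-likelihood p under 0.05 after Benjamini-Hochberg adjustment across the 10603 genes tested, and each background is the percentage of those genes called in the same comparison. With PDGF against no PDGF, 5 of the 7 tested genes were called, *Meg3*, *Rian* and *Mirg* higher and *Airn* and *Peg3* lower, beside a background of 37.0%. With rapamycin and PDGF against PDGF alone, 5 of the 7 were called, *Meg3*, *Airn* and *Igf2r* higher and *Dlk1* and *Peg3* lower, beside 32.4%. With cycloheximide and PDGF against PDGF alone, 3 of the 7 were called, *Peg3* higher and *Dlk1* and *Igf2r* lower, beside 40.6%, a share close to that of the genes at large. Between TerminaTOR and mCherry cells under cycloheximide, 2 of the 7 were called, *Meg3* and *Igf2r*, both lower, beside 4.92%, and 2.57% for genes called lower. Genes pass the filter partly through the group in which they are high, so these counts describe the 7 genes and test nothing about imprinted genes as a class. The other pairs of groups used below had backgrounds of 56.5% for cycloheximide against rapamycin, 47.4% for cycloheximide against no PDGF, 53.4% for rapamycin against no PDGF and 49.9% for TerminaTOR against no PDGF. The PDGF group serves in 3 of these comparisons, which are therefore not independent of each other.

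**Figure D2:**
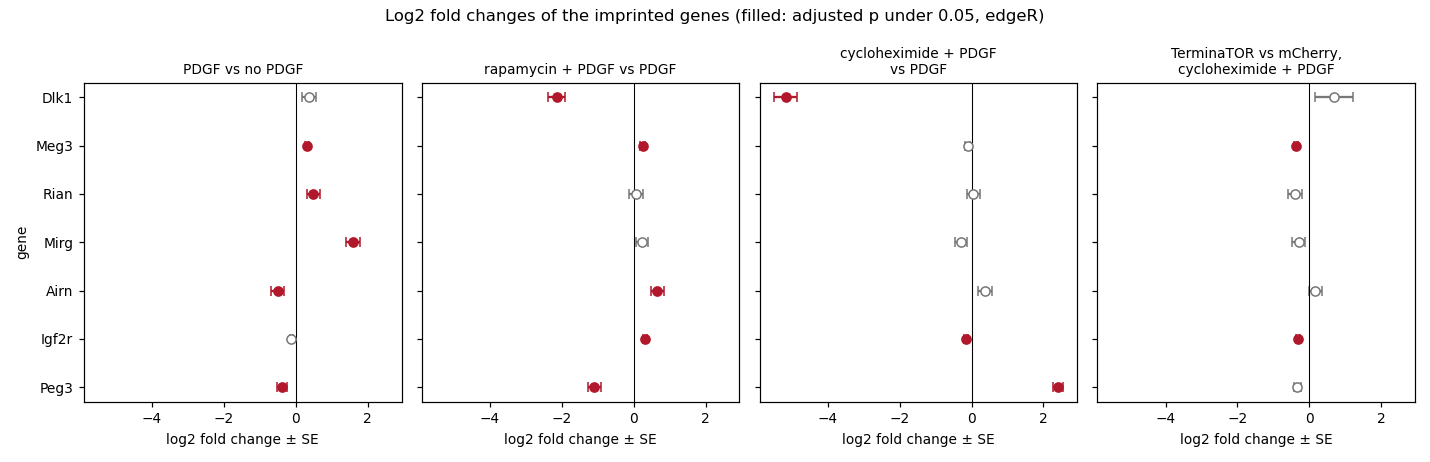
Log2 fold changes with standard errors of the 7 tested imprinted genes in the 4 comparisons, with filled points for genes called by edgeR. *Dlk1* under cycloheximide (-5.17) and *Peg3* under cycloheximide (2.41) lie farthest from 0, and all points of the TerminaTOR comparison lie between -0.40 and 0.68.

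*Dlk1* was lowered by rapamycin, was nearly lost under cycloheximide and was not called for PDGF or TerminaTOR. Its level was 2.02, 1.17 and 1.52 CPM in TerminaTOR cells with cycloheximide and PDGF, 1.44, 1.25 and 0.382 CPM in mCherry cells with cycloheximide and PDGF, 4.99, 13.2 and 7.32 CPM with rapamycin and PDGF, 36.5, 32.9 and 40.8 CPM with PDGF, and 33.3, 27.4 and 24.9 CPM without PDGF. The 6 cycloheximide libraries were all below the 3 rapamycin libraries, which were all below the 6 remaining ones. Against PDGF alone, rapamycin gave a log2 fold change of -2.14 ± 0.24 (SE, edgeR adjusted p = 7.43e-12), 4.39-fold lower. Cycloheximide gave -5.17 ± 0.32 (adjusted p = 6.38e-23), 35.9-fold lower, from 14 reads in the 3 cycloheximide libraries against 459 in the 3 PDGF libraries. PDGF itself gave 0.37 ± 0.20 (adjusted p = 0.146), with overlapping libraries, and was called (0.38, adjusted p = 0.0407) in a fit on those 2 groups alone. TerminaTOR gave 0.68 ± 0.52 (adjusted p = 0.566), from 24 reads in TerminaTOR cells and 14 in mCherry cells, which limits the precision. A fall by the rapamycin fold would have put the mCherry mean of 1.03 CPM at 0.235 CPM. That is under the 3-read limits of 0.466 to 0.911 CPM of the TerminaTOR libraries. The TerminaTOR libraries all lay above those limits, so a fall of that size was not seen, on few reads. Levels with cycloheximide and PDGF were also below those with rapamycin and PDGF (log2 fold change -3.03 ± 0.39, adjusted p = 5.32e-10).

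Fat-cell markers were checked beside *Dlk1*, and *Lpl*, a lipoprotein lipase, was the 1 of 6 with enough reads to test. The summed level of 6 adipocyte markers was 11.5 to 17.1 CPM in TerminaTOR cells, 7.62 to 13 CPM with cycloheximide, 1.39 to 2.45 CPM with rapamycin, 6.69 to 11.8 CPM with PDGF and 7.07 to 8.03 CPM without PDGF. That sum is nearly all *Lpl*, which was at 1.83 ± 0.552 CPM with rapamycin and PDGF, against 9.46 ± 2.58 CPM with PDGF alone (SD, n = 3 each, log2 fold change -2.37, adjusted p = 1.60e-07), and at 9.87 ± 2.95 CPM with cycloheximide and PDGF (0.05, adjusted p = 0.908). Over all 15 libraries *Adipoq* and *Cidec* had 4 reads each, *Fabp4* and *Pparg* 1 each and *Plin1* 0, so the values say nothing of fat-cell markers as a group. The part of *Lpl* in the *Dlk1* result was not tested. The Notch pathway, to which *Dlk1* is related by sequence, had 8 of 17 listed genes tested. Of these 8, 4 were called with PDGF, 2 with rapamycin and 4 with cycloheximide. The backgrounds were 37.0%, 32.4% and 40.6% of all genes tested, and the pathway was not tested as a set. PDGF raised 3 and lowered 1, among them *Hes1*, a Notch target gene, at 9.30 ± 2.35 CPM with PDGF and 0.749 ± 0.771 CPM without (SD, n = 3 each, log2 fold change 3.56, adjusted p = 3.02e-10). Rapamycin raised 1 and lowered 1 of the 8, with *Hes1* at 2.94 ± 1.12 CPM with rapamycin and PDGF, against 9.30 ± 2.35 CPM with PDGF alone (-1.66, adjusted p = 2.70e-04). Cycloheximide raised 1 and lowered 3, and *Rbpj*, the DNA-binding partner of Notch, was at 17.6 ± 5.20 CPM with cycloheximide and PDGF, against 51.7 ± 5.62 CPM with PDGF alone (-1.54, adjusted p = 3.57e-13).

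*Peg3* moved with *Dlk1* under rapamycin and against it under cycloheximide. It was at 124, 90.2 and 104 CPM in TerminaTOR cells with cycloheximide and PDGF, 148, 114 and 136 CPM in mCherry cells with cycloheximide and PDGF, 14.4, 9.18 and 11.6 CPM with rapamycin and PDGF, 27.1, 24.2 and 24.1 CPM with PDGF, and 34.2, 31.7 and 32.2 CPM without PDGF. Apart from the TerminaTOR and mCherry libraries under cycloheximide, which overlap, the groups did not overlap with each other. Cycloheximide raised *Peg3* by 2.41 ± 0.13 on the log2 scale over PDGF alone (adjusted p = 1.49e-26), 5.30-fold higher, and its level was also 4.07-fold above that of cells without PDGF. Rapamycin lowered it by a log2 fold change of -1.09 ± 0.17 (adjusted p = 3.06e-07), 2.13-fold lower. PDGF lowered it (-0.38 ± 0.14, adjusted p = 0.0246). DESeq2 (adjusted p = 0.0727) and limma-voom (0.0848) did not make that call, and it was lost without starved replicate 1 (0.0692), PDGF replicate 2 (0.0799) or PDGF replicate 3 (0.102). TerminaTOR gave -0.33 ± 0.11 (adjusted p = 0.0697), which limma-voom called (0.0463), as did the fits without TerminaTOR replicate 1 (0.0173) or cycloheximide replicate 2 (0.0257).

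*Usp29*, a ubiquitin protease gene that is also paternally expressed, has its first annotated start 147 bases from that of *Peg3* and runs the other way. Of its 603 reads, 580 were on the non-coding Usp29-205, which starts 514 bases from *Peg3*, and 5 on the protein-coding Usp29-204, so its values are not a level of the coding mRNA either. It had 86, 105 and 67 reads in TerminaTOR cells, 78, 47 and 58 with cycloheximide, 2, 2 and 11 with rapamycin, 12, 19 and 24 with PDGF, and 29, 40 and 23 without PDGF. Mean levels were 18.1 ± 4.09 CPM in TerminaTOR cells, 13 ± 2.69 CPM with cycloheximide, 1.25 ± 1.16 CPM with rapamycin, 4.37 ± 0.940 CPM with PDGF and 6.07 ± 2.31 CPM without PDGF (SD, n = 3 each). *Usp29* was called in the same direction as *Peg3* under cycloheximide (log2 fold change 1.55 ± 0.31, adjusted p = 2.62e-05) and under rapamycin (-1.70 ± 0.46, adjusted p = 0.00218), and was not called with PDGF (-0.44, adjusted p = 0.323) or TerminaTOR (0.46, adjusted p = 0.383). Both comparisons with a call share the PDGF libraries.

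The start regions of *Peg3* and *Meg3* hold a sequence that few others do, and that of *Dlk1* does not. The RefSeq promoter table (GRCm38.p6, 250 bases before to 50 after the start) held 9 of the 10 genes. The motifs searched, on both strands, were the cAMP response element, the E-box, the AP-1 site and the TATA box. The cAMP response element, TGACGTCA, was in 1.79% of 32851 promoters, and among the 9 genes it was found once in *Peg3*, beginning 178 bases before the start, and once in the first *Meg3* promoter, 57 bases before. The TATA box, TATAAA, in 13.6% of promoters, matched on both strands in overlapping letters of that *Meg3* promoter and once in *Airn*. The E-box, CACGTG, in 7.15%, occurred at 2 places in *Igf2r*. The AP-1 site, TGACTCA, in 5.20%, was in none of the 9 genes. A match is only a run of letters. The windows shown are *Peg3* (chr7:6730370-6730669, minus strand), which takes in the first annotated start of *Usp29* but not that of Usp29-205, *Meg3* (chr12:109540746-109541045, plus strand) and *Dlk1* (chr12:109452573-109452872, plus strand), with the cAMP response element and the TATA box in capitals. The *Dlk1* window belongs to the full-length transcripts and not to Dlk1-207, which starts farther downstream.
Peg3: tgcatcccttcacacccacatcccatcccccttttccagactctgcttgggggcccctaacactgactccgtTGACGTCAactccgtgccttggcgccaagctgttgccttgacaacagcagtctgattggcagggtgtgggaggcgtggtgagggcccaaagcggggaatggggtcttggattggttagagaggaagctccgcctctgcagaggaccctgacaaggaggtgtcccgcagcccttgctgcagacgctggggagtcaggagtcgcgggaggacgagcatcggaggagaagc
Meg3: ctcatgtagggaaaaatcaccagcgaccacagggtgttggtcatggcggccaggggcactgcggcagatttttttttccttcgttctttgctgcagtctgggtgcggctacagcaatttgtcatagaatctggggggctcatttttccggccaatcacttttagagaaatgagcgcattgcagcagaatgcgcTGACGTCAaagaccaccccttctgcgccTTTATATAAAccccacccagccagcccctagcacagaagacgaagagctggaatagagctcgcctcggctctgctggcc
Dlk1: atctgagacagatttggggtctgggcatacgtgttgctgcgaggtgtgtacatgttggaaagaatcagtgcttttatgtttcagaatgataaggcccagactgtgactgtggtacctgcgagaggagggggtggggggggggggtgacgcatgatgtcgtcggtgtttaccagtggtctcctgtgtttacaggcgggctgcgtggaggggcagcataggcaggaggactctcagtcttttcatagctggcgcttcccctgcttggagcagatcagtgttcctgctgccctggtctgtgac

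**Figure D3:**
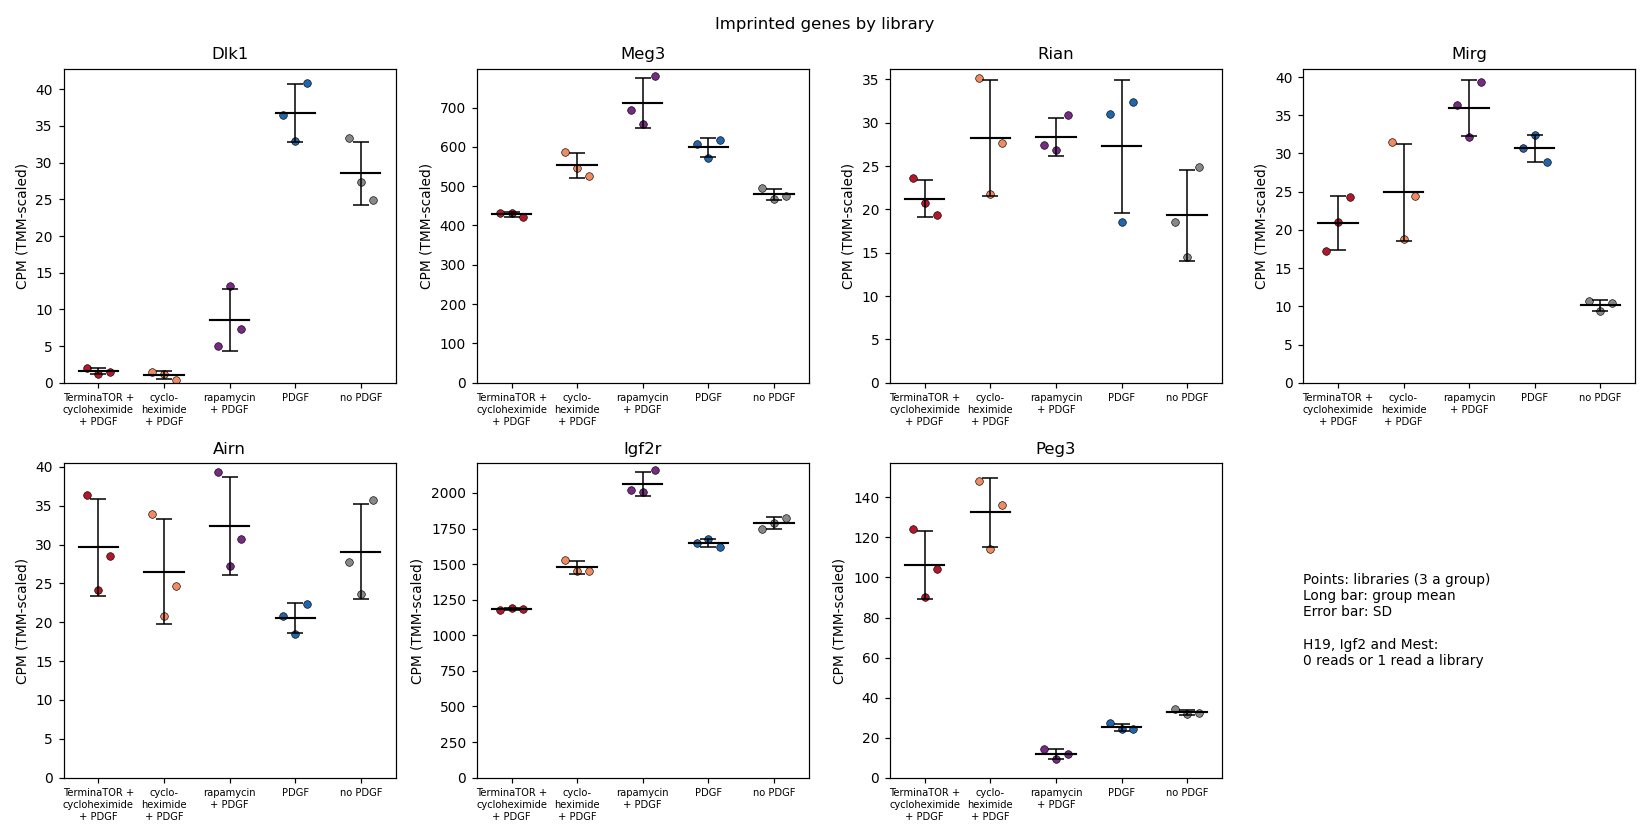
Levels of the 7 tested imprinted genes in each library (CPM, TMM-scaled, linear axes from 0), with group means and SD (n = 3). *Dlk1* is lowest and *Peg3* highest in the cycloheximide groups, *Mirg* is lowest without PDGF, and *Igf2r* is lowest in TerminaTOR cells.

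The 3 maternal RNAs of the *Dlk1* cluster were higher with PDGF, by different amounts. *Mirg* was at 30.7, 32.4 and 28.9 CPM with PDGF, against 10.7, 9.33 and 10.4 CPM without PDGF. Its log2 fold change was 1.59 ± 0.19 (edgeR adjusted p = 5.97e-11), 3.00-fold higher, and the call held under all 14 alternatives. *Meg3*, a nuclear RNA with growth-restraining activity in cell culture, was at 607, 571 and 617 CPM with PDGF, against 495, 468 and 476 CPM without PDGF. The groups did not overlap, and the log2 fold change was 0.32 ± 0.06 (adjusted p = 1.16e-05). *Rian* was at 31.0, 18.5 and 32.4 CPM with PDGF, against 18.6, 14.5 and 24.9 CPM without PDGF, where 1 PDGF library lay inside the range of the starved ones (0.49 ± 0.19, adjusted p = 0.0348). Scaling by library size in place of TMM moved the median of all genes to -0.25 and ended the calls of *Meg3* (0.07, adjusted p = 0.352) and *Rian* (0.24, adjusted p = 0.328). Relative to that median *Meg3* still lay above the genes at large. *Rian* also lost its call in DESeq2 (adjusted p = 0.116), in limma-voom (0.0613), on its most abundant transcript (0.0694), and without starved replicate 1 (0.0981), starved replicate 2 (0.187), PDGF replicate 1 (0.137) or PDGF replicate 3 (0.235).

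Read against *Meg3* within each library, *Mirg* differed between starved cells and every PDGF group. There were 3.99 to 5.78 *Mirg* reads per 100 *Meg3* reads in TerminaTOR cells, 3.45 to 5.37 with cycloheximide, 4.89 to 5.23 with rapamycin, 4.68 to 5.67 with PDGF, and 1.99 to 2.19 without PDGF. All 12 libraries given PDGF were above the 3 that were not. The difference between PDGF and no PDGF was 3.02 reads per 100 (exact two-sided permutation test, p = 0.10, the smallest that 3 against 3 libraries allow). *Rian* reads per 100 *Meg3* reads ran from 3.24 to 5.25 with PDGF and from 3.10 to 5.24 without it (exact permutation p = 0.70), ranges that overlap. This ratio does not depend on the scaling of the libraries.

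Rapamycin left *Mirg* and *Rian* without a call and raised *Meg3* slightly. *Mirg* was at 36.3, 32.1 and 39.4 CPM with rapamycin and PDGF, against 30.7, 32.4 and 28.9 CPM with PDGF alone (log2 fold change 0.24 ± 0.17, adjusted p = 0.308). *Rian* was at 27.4, 26.9 and 30.9 CPM with rapamycin and PDGF, against 31.0, 18.5 and 32.4 CPM with PDGF alone (0.06 ± 0.19, adjusted p = 0.859), a value whose sign changed under 3 alternatives. *Meg3* was at 694, 657 and 781 CPM with rapamycin and PDGF, against 607, 571 and 617 CPM with PDGF alone (0.25 ± 0.06, adjusted p = 6.11e-04). Scaling by library size, which put the median of all genes at -0.10, took that call away (0.12, adjusted p = 0.10). *Mirg* with rapamycin and PDGF remained above cells without PDGF, by 1.82 ± 0.19 (adjusted p = 1.63e-13).

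None of the 3 maternal RNAs was called by edgeR under cycloheximide, where *Dlk1* was 35.9-fold lower. The difference between these genes was not tested. *Meg3* was at 587, 545 and 526 CPM with cycloheximide and PDGF, against 607, 571 and 617 CPM with PDGF alone (-0.11 ± 0.06, adjusted p = 0.126). *Rian* was at 35.2, 21.8 and 27.7 CPM with cycloheximide and PDGF, against 31.0, 18.5 and 32.4 CPM with PDGF alone (0.05 ± 0.18, adjusted p = 0.856). *Mirg* was at 31.5, 18.8 and 24.5 CPM with cycloheximide and PDGF, against 30.7, 32.4 and 28.9 CPM with PDGF alone (-0.29 ± 0.17, adjusted p = 0.182). Without cycloheximide replicate 1, *Meg3* (-0.18, adjusted p = 0.0347) and *Mirg* (-0.51, adjusted p = 0.0333) were called lower. *Meg3* was also called in a fit on the 2 compared groups (-0.14, adjusted p = 0.0346). Under library-size scaling, with the median of all genes at -0.13, both were called as well (*Meg3* -0.25, adjusted p = 2.26e-04, *Mirg* -0.43, adjusted p = 0.0406). Of 4 other long non-coding hosts of small nucleolar RNAs tested, from a list of 12, cycloheximide lowered 3 (75.0%, beside 40.6% of all genes called). Among them, *Snhg6* was at 4.81 ± 1.33 CPM with cycloheximide and PDGF and 34.4 ± 6.73 CPM with PDGF alone (SD, n = 3 each, -2.85, adjusted p = 1.18e-17).

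TerminaTOR lowered *Meg3*, and no other RNA of the cluster was called. *Meg3* was at 433, 432 and 420.4 CPM in TerminaTOR cells, against 587, 545 and 526 CPM in mCherry cells, with no overlap. The log2 fold change was -0.37 ± 0.06 (adjusted p = 1.48e-05), 1.29-fold lower, and the call held under all 14 alternatives. *Rian* was at 23.6, 20.7 and 19.4 CPM in TerminaTOR cells, against 35.2, 21.8 and 27.7 CPM in mCherry cells (-0.40 ± 0.19, adjusted p = 0.251). *Mirg* was at 17.2, 21.1 and 24.3 CPM in TerminaTOR cells, against 31.5, 18.8 and 24.5 CPM in mCherry cells (-0.29 ± 0.18, adjusted p = 0.436). *Rian* and *Mirg* had estimates near that of *Meg3* with larger errors. *Meg3* in TerminaTOR cells was also below the level of cells without PDGF (-0.16 ± 0.06, adjusted p = 0.0219).

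*Igf2r* was lower in TerminaTOR cells and higher with rapamycin, each by about the same amount. It was at 1181, 1189 and 1184 CPM in TerminaTOR cells with cycloheximide and PDGF, 1527, 1449 and 1454 CPM in mCherry cells with cycloheximide and PDGF, 2024, 2005 and 2158 CPM with rapamycin and PDGF, 1646, 1675 and 1621 CPM with PDGF, and 1744, 1792 and 1826 CPM without PDGF. No group overlapped with another, and the order from highest to lowest was rapamycin, no PDGF, PDGF, cycloheximide and TerminaTOR. The TerminaTOR effect was -0.32 ± 0.05 (adjusted p = 1.13e-05), 1.25-fold lower, and it held under all 14 alternatives. Rapamycin gave 0.32 ± 0.05 (adjusted p = 3.81e-07), 1.25-fold higher. Cycloheximide against PDGF alone gave -0.16 (adjusted p = 0.0108), a call lost with no filter on low counts (0.0778), on the most abundant transcript (0.0552) and without cycloheximide replicate 3 (0.0574). PDGF against no PDGF gave -0.12 (adjusted p = 0.0655), which DESeq2 (0.0155), limma-voom (0.00509) and the fit on the most abundant transcript (0.0315) called. Scaling by library size made the PDGF difference -0.37 (adjusted p = 1.74e-09), against a median of all genes of -0.25.

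*Airn* was called lower with PDGF and higher with rapamycin. It was at 36.4, 24.1 and 28.5 CPM in TerminaTOR cells, 34.0, 20.8 and 24.7 CPM with cycloheximide, 39.4, 27.2 and 30.7 CPM with rapamycin, 20.8, 18.5 and 22.3 CPM with PDGF, and 27.8, 23.7 and 35.7 CPM without PDGF. The PDGF libraries were low and close together and overlapped only with those of mCherry cells under cycloheximide, and the other groups overlapped each other. PDGF lowered *Airn* by a log2 fold change of -0.50 ± 0.18 (adjusted p = 0.0239), which DESeq2 (adjusted p = 0.0919) and limma-voom (0.0530) did not call, and which was lost without starved replicate 3 (-0.32, adjusted p = 0.227), PDGF replicate 1 (0.0585) or PDGF replicate 2 (0.105). Rapamycin raised it by 0.66 ± 0.19 (adjusted p = 0.00397), the same direction as *Igf2r*, with an adjusted p of 0.0604 without rapamycin replicate 1. Cycloheximide gave 0.37 ± 0.19 (adjusted p = 0.106, and 0.0451 without cycloheximide replicate 2), and TerminaTOR gave 0.17 ± 0.17 (adjusted p = 0.712). There were 20.2 to 30.8 *Airn* reads per 1000 *Igf2r* reads in TerminaTOR cells and 14.4 to 22.2 in mCherry cells under cycloheximide, a difference of 7.19 (exact two-sided permutation p = 0.20). In replicate order the ratios were 30.8, 20.2 and 24.1 in TerminaTOR cells and 22.2, 14.4 and 17.0 in mCherry cells. That test did not use the replicate numbers, and a paired difference was not tested.

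**Figure D4:**
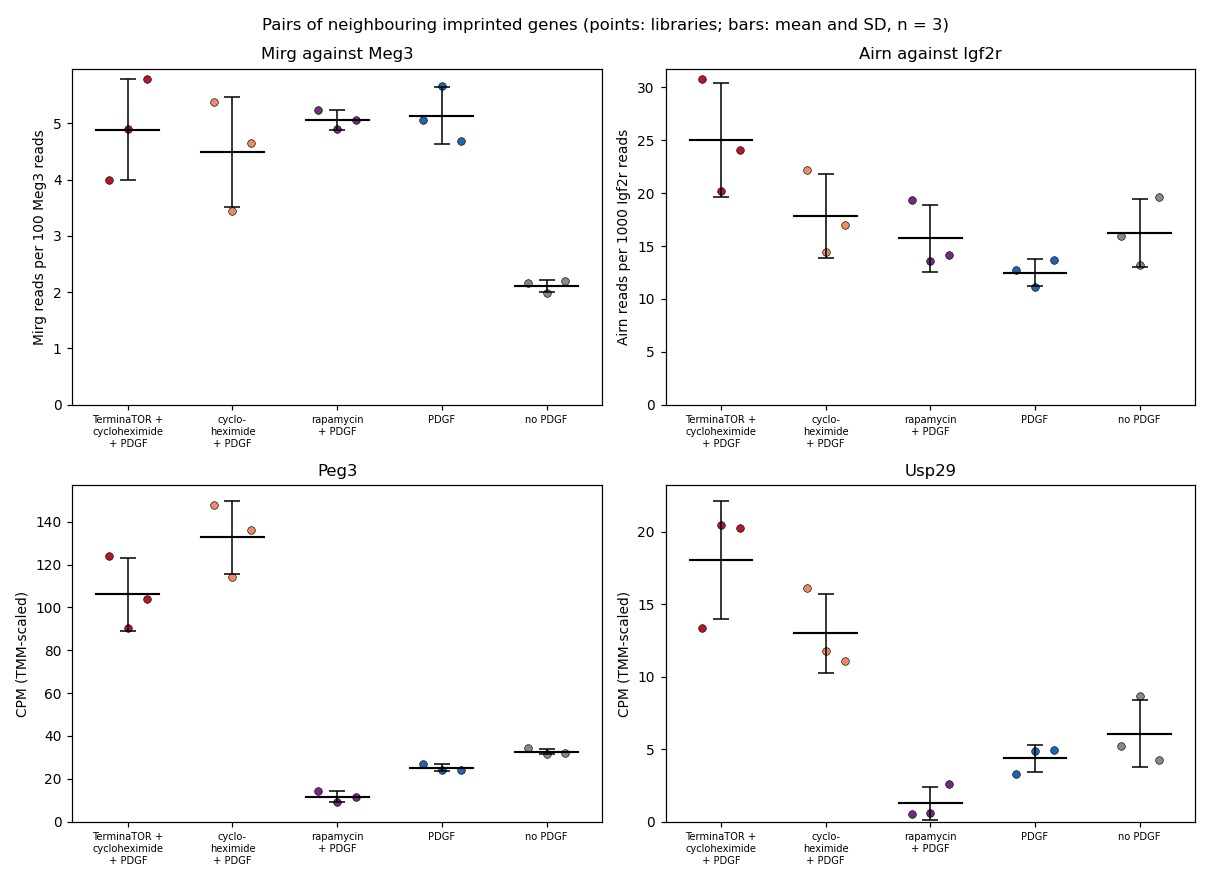
Read ratios within a cluster (*Mirg* per 100 *Meg3* reads, *Airn* per 1000 *Igf2r* reads) and CPM of the divergent neighbours *Peg3* and *Usp29*, by library with group mean and SD (n = 3). *Mirg* per 100 *Meg3* reads is 1.99 to 2.19 without PDGF and 3.45 or more in every library with it, and *Peg3* and *Usp29* are both highest in the cycloheximide groups and lowest with rapamycin.

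Rapamycin and TerminaTOR, which both act on mTORC1, gave different effects on *Meg3*, *Igf2r* and *Peg3* when the effects were set against each other. The difference of the effects, TerminaTOR against mCherry under cycloheximide minus rapamycin against PDGF alone, was called for 24.0% of all genes tested. It was -0.62 ± 0.09 for *Meg3* (adjusted p = 1.97e-08), -0.64 ± 0.07 for *Igf2r* (adjusted p = 4.62e-11) and 0.76 ± 0.20 for *Peg3* (adjusted p = 0.00296). *Meg3* and *Igf2r* were lower with TerminaTOR and higher with rapamycin. *Peg3* was lower with rapamycin and had no call with TerminaTOR. *Dlk1* also passed the threshold (2.81 ± 0.57, adjusted p = 7.72e-05). Its reads under cycloheximide were few, with 24 in TerminaTOR cells and 14 in mCherry cells. The part of that low level in the *Dlk1* difference was not tested. *Rian* (-0.46), *Mirg* (-0.52) and *Airn* (-0.49) were not called, with adjusted p of 0.223, 0.115 and 0.171, and *Mirg* was called without cycloheximide replicate 2 (-0.68, adjusted p = 0.0386). The TerminaTOR effect was measured only under cycloheximide and the rapamycin effect only without it, so the inhibitor and the presence of cycloheximide cannot be told apart in this difference.

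*H19*, *Igf2* and *Mest* were at or near 0 in every library. *H19*, the non-coding partner of *Igf2*, and *Igf2*, a fetal growth factor, had 0 reads in all 15 libraries, which allows up to 0.466 to 0.918 CPM a library from 3 reads. *Mest*, which encodes a hydrolase-like protein of the mesoderm, had 1 read in PDGF replicate 1 and 1 in TerminaTOR replicate 1. The counting limits what this shows. The rule by which reads were assigned to transcripts is not known here, and transcripts with no base of their own mostly had no reads, with Rian-203 an exception. Only 146 bases of *H19* belong to a single one of its 7 transcripts (chr7:142575529-142578143), 1774 bases over the 9 transcripts of *Igf2* (chr7:142650766-142666816) and 871 over the 11 of *Mest* (chr6:30723547-30748465). Values at or near 0 for these genes therefore do not show that they were silent.

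The receptor and binding proteins of the IGF pathway were measured although *Igf2* was not detected. Of 16 listed genes 10 were tested. Of these 10, 7 were called with PDGF, 7 with rapamycin, 7 with cycloheximide and 2 with TerminaTOR. The backgrounds were 37.0%, 32.4%, 40.6% and 4.92% of all genes tested, and the list was not tested as a set. PDGF raised 3 and lowered 4, with *Irs1*, an adaptor of the insulin and IGF1 receptors, at 56.0 ± 8.25 CPM with PDGF and 245 ± 12.1 CPM without (SD, n = 3 each, -2.14, adjusted p = 6.61e-26). Rapamycin raised 3 and lowered 4, with *M6pr*, the other mannose-6-phosphate receptor, at 39.8 ± 3.76 CPM with rapamycin and PDGF and 16.3 ± 2.32 CPM with PDGF alone (1.28, adjusted p = 1.28e-07), the same direction as *Igf2r*. Cycloheximide raised 3 and lowered 4, with *M6pr* at 7.20 ± 0.862 CPM with cycloheximide and PDGF and 16.3 ± 2.32 CPM with PDGF alone (-1.18, adjusted p = 1.63e-05), again the direction of *Igf2r*. With TerminaTOR, where *Igf2r* was lower, *M6pr* was at 7.61 ± 2.08 CPM in TerminaTOR cells and 7.20 ± 0.862 CPM in mCherry cells and was not called (0.03 ± 0.25, adjusted p = 0.970). TerminaTOR raised 2, *Irs2* (0.26, adjusted p = 0.00202) and *Igf2bp1* (0.24, adjusted p = 0.0239).

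Factors that bind, keep or erase the DNA methylation of imprints were also measured. Of 14 listed 9 were tested. The shares called were 44.4% with PDGF, 66.7% with rapamycin, 44.4% with cycloheximide and 11.1% with TerminaTOR, beside backgrounds of 37.0%, 32.4%, 40.6% and 4.92%. PDGF raised 4. Of these, *Zfp57* (0.71, adjusted p = 0.00973) and *Yy1* (0.22, adjusted p = 0.00128) bind imprinted loci, whereas *Tet2* and *Tet3* (0.57, adjusted p = 9.78e-12) encode enzymes that remove DNA methylation. *Tet2* was at 13.3 ± 1.07 CPM with PDGF and 5.67 ± 1.45 CPM without (1.24, adjusted p = 3.37e-04). Rapamycin raised 2, *Zfp57* and *Tet3*, and lowered 4, *Tet2*, *Zfp445*, *Ctcf* and *Trim28*, with *Trim28*, a corepressor that protects imprints, at 56.1 ± 4.65 CPM with rapamycin and PDGF and 95.5 ± 6.32 CPM with PDGF alone (-0.77, adjusted p = 2.73e-06). *Ctcf*, the insulator protein of the *Igf2* and *H19* cluster, was at 81.9 ± 10 CPM with rapamycin and PDGF and 136 ± 10 CPM with PDGF alone (-0.73, adjusted p = 1.19e-09). Cycloheximide raised *Zfp445* and lowered *Tet3*, *Setdb1* and *Zfp57*, with *Zfp57*, which binds methylated imprint control regions, at 5.63 ± 0.812 CPM with cycloheximide and PDGF and 17.4 ± 2.41 CPM with PDGF alone (-1.62, adjusted p = 1.26e-07). TerminaTOR raised 1, *Yy1* (0.24, adjusted p = 0.00480).

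A wider list of 58 other imprinted genes, of which 24 were tested, had called genes in both directions with PDGF, rapamycin and cycloheximide, and 1 called gene with TerminaTOR. The shares called were 54.2% with PDGF beside a background of 37.0%, 37.5% with rapamycin beside 32.4%, 41.7% with cycloheximide beside 40.6% and 4.17% with TerminaTOR beside 4.92%, so all but the first lay close to the genes at large. PDGF raised 6 and lowered 7 of the 24 (median log2 fold change 0.18, against -0.01 for all genes tested). *Kcnq1ot1*, a non-coding RNA that silences its cluster, was at 88.3 ± 31.8 CPM with PDGF and 46.7 ± 15.3 CPM without (0.90, adjusted p = 0.0356). *Mkrn3* was at 2.32 ± 0.588 CPM with PDGF and 12.4 ± 1.23 CPM without (-2.43, adjusted p = 7.51e-08). Rapamycin raised 4 and lowered 5 (median -0.16, against 0.02), with *Dcn*, which encodes the matrix proteoglycan decorin, at 71.4 ± 4.51 CPM with rapamycin and PDGF and 11.5 ± 3.73 CPM with PDGF alone (2.66, adjusted p = 1.67e-18). *Ndn*, a growth suppressor, was at 38.7 ± 4.94 CPM with rapamycin and PDGF and 68.5 ± 5.18 CPM with PDGF alone (-0.83, adjusted p = 5.15e-08). Cycloheximide raised 5 and lowered 5 (median 0.09, against 0.01), with *Zrsr1* at 19.7 ± 3.15 CPM with cycloheximide and PDGF and 5.69 ± 1.54 CPM with PDGF alone (1.81, adjusted p = 5.58e-08). *Grb10*, an adaptor that dampens insulin signalling, was at 9.66 ± 1.63 CPM with cycloheximide and PDGF and 19.8 ± 3.97 CPM with PDGF alone (-1.03, adjusted p = 1.04e-04). TerminaTOR lowered 1, *Impact*, a regulator of translation under amino acid shortage, at 344 ± 7.27 CPM in TerminaTOR cells and 459 ± 26.5 CPM in mCherry cells (-0.42, adjusted p = 1.19e-05). The rapamycin effect on *Impact* was -1.22 (adjusted p = 2.92e-23).

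**Figure D5:**
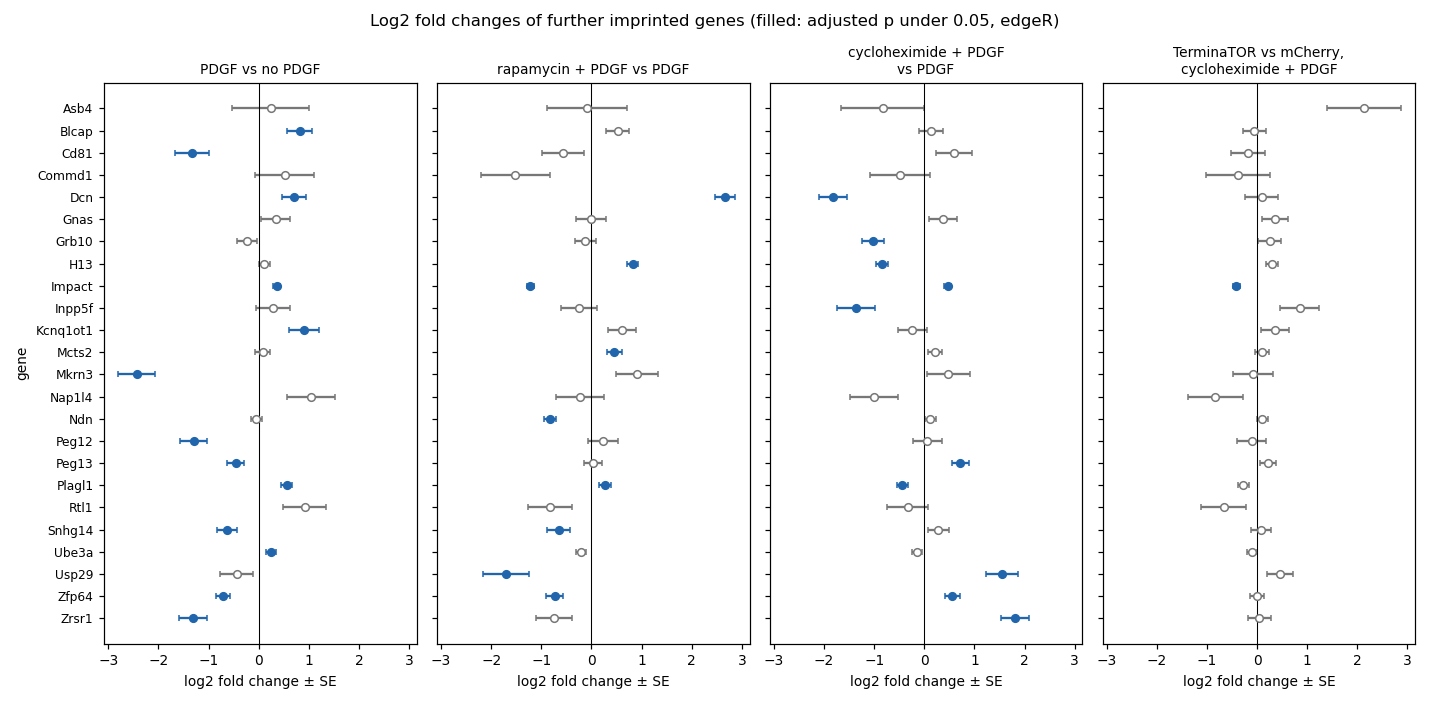
Log2 fold changes with standard errors of the 24 tested genes among 58 further imprinted genes, in the 4 comparisons, with filled points for genes called by edgeR. Called genes lie on both sides of 0 for PDGF (6 higher, 7 lower), rapamycin (4 and 5) and cycloheximide (5 and 5), and 1 gene, *Impact*, is called for TerminaTOR.

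Neighbouring genes of the clusters were read from a list of 28, of which 11 were tested. PDGF raised 3 and lowered 1, rapamycin raised 2 and lowered 2, cycloheximide raised 1 and lowered 6, and TerminaTOR lowered 1. In that order 36.4%, 36.4%, 63.6% and 9.09% were called, beside backgrounds of 37.0%, 32.4%, 40.6% and 4.92%. *Begain*, on the other side of *Dlk1* from *Meg3*, was at 1.45 ± 1.26 CPM with cycloheximide and PDGF against 5.11 ± 2.90 CPM with PDGF alone (-1.83, adjusted p = 0.00519), the direction of *Dlk1*. *Sod2*, on the far side of *Airn* from *Igf2r*, was at 198 ± 15.5 CPM with rapamycin and PDGF against 27.4 ± 4.54 CPM with PDGF alone (2.85, adjusted p = 1.93e-31). *Clcn4*, near *Peg3*, was at 93.9 ± 4.95 CPM in TerminaTOR cells against 124 ± 9.30 CPM in mCherry cells (-0.41, adjusted p = 0.00144). Of 4 nuclear long non-coding RNAs tested from a list of 6, PDGF raised 3, led by *Neat1*, the scaffold of paraspeckles, at 309.8 ± 105 CPM with PDGF and 102 ± 43.1 CPM without (1.60, adjusted p = 0.00629). Cycloheximide raised 1 of the 4, *Tug1* (0.35, adjusted p = 6.54e-04). Of these 4 genes, 75.0% were called with PDGF and 25.0% with cycloheximide, beside 37.0% and 40.6% of all genes tested.

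For each tested gene the 3 genes with the most similar levels over the 15 libraries were listed, as Pearson correlations of log2 CPM among 7572 genes. These are descriptions over libraries that share 5 group means. *Peg3* was most like *H1f0*, *Tob1* and *Cdc42ep1* (each 0.98), and *Dlk1* most like *Prrc1* (0.96), *Medag* (0.96) and *Cln8* (0.95). *Mirg* was most like *Zyx* (0.96), *Ppp1r15b* and *Slc30a4* (each 0.95). *Meg3* was most like *Prmt6* (0.95), *Isg20l2* and *Lmbrd2* (each 0.94), and *Igf2r* most like *Ppm1l* (0.96), *Tirap* and *Polr1a* (each 0.95). The best matches were weaker for *Rian*, with *Khdc4* at 0.82, *Med1* at 0.80 and *Nktr* at 0.79, and for *Airn*, with *Cdc37l1* at 0.78, *Banp* and *Egfr* each at 0.77.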

How the data were processed

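Whole-number read counts per mouse transcript were deposited by the authors for 15 poly-A RNA libraries, not normalized. Tools named, per the submitters' processing notes, are R 4.1.0, HTSeq 0.9.1 and HISAT2 2.2.1, with the human build hg38. No mouse build or annotation is given in the sources used here. Of 142446 transcript identifiers, 141536 matched GENCODE M21 (GRCm38) and were summed to 55266 genes, and the 910 unmatched ones held 0.0309% of counts.

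After edgeR's filterByExpr filter on low counts (by the 5 groups) and TMM scaling, genes were tested with edgeR 4.0.16 in R 4.3.3 (quasi-likelihood test, robust, 1 mean per group, all 15 libraries, Benjamini-Hochberg adjustment over 10603 genes, threshold 0.05). The script was tested on simulated data. Alternatives were library-size and RLE scaling, no filter, DESeq2 1.42.0, limma-voom 3.58.1, a replicate block, the most abundant transcript, the 2 compared groups alone, and each library left out. A fit of every transcript of the genes was added after seeing the data. Read ratios were compared by exact permutation tests in SciPy.

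The genes and gene lists were chosen with earlier results of these data known. Named from other lists were up to 3 called genes per list and direction with the largest change and a mean log2 CPM of at least 1, from which the text takes examples. Similar genes were the 3 with the highest Pearson correlation of log2 CPM (prior count 2). The labels do not say that libraries came from separate cultures, so p-values measure only the spread between these libraries, which may be technical. Limits from 3 reads cover counting error only.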

Additional observations from a re-analysis of the deposited data

Results flagged for a closer look

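The difference between the TerminaTOR effect (against mCherry cells, under cycloheximide) and the rapamycin effect (against PDGF alone) was tested in the same edgeR fit. It passed the threshold for 4 of the 7 genes, beside 24.0% of all genes tested. *Dlk1* had a difference of 2.81, with log2 effects of 0.68 for TerminaTOR and -2.14 for rapamycin. Under cycloheximide *Dlk1* was low (24 reads in TerminaTOR cells, 14 in mCherry cells), and the part of that low level in its difference was not tested. For all 7 genes the inhibitor and the presence of cycloheximide cannot be told apart in this difference. *Peg3* had a difference of 0.76, with effects of -0.33 and -1.09. *Meg3* had a difference of -0.62, with effects of -0.37 and 0.25. *Igf2r* had a difference of -0.64, with effects of -0.32 and 0.32. These 4 calls held in all 19 alternatives.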

How the results depend on the processing

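Of 524 recomputed log2 changes of the 7 genes, 475 kept direction and side of the threshold, 24 lost a call, 16 gained one and 9 changed sign. No called change turned sign. The sign changes were all in uncalled values: *Rian* with rapamycin under library-size scaling (-0.07) and without PDGF replicate 2 (-0.16) or rapamycin replicate 3 (-0.02; range with a library left out -0.16 to 0.20), *Rian* with cycloheximide under library-size scaling (-0.09), on the most abundant transcript (-0.06) and without PDGF replicate 2 (-0.18) or cycloheximide replicate 1 (-0.15; range -0.18 to 0.20), and *Airn* with TerminaTOR on the most abundant transcript (-0.05) and without TerminaTOR replicate 1 (-0.04; range -0.04 to 0.38). The number of genes called with PDGF, 5, was 3 with DESeq2 and 3 with limma-voom, which also called *Igf2r*, and 3 to 4 with a library left out. The number called with cycloheximide, 3, was 5 under library-size scaling and 2 to 5 with a library left out. Among the other imprinted genes, PDGF called 13, and 8 to 13 with a library left out, and TerminaTOR called 1, and 3 in a fit on the 2 compared groups. The cause of these moves was not tested, except that a left-out library means fewer samples.

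The labels do not say whether the replicate numbers pair the samples. Correlations of same-numbered deviations over all genes tested ran from -0.00 to 0.08, which cannot decide this for a single gene. *Airn* was lowest in replicate 2 of every group (TerminaTOR 24.1, cycloheximide 20.8, rapamycin 27.2, PDGF 18.5 and no PDGF 23.7 CPM). No other tested gene of the set had the same replicate lowest in every group. With a replicate block the *Peg3* change with TerminaTOR was called (-0.33, adjusted p = 0.0294), and no other call of the 7 genes changed. Depth limits *Dlk1* under cycloheximide most, with 14 reads in the mCherry group.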

Other observations

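Transcripts of one gene were tested separately, in a fit of 13116 transcripts chosen after seeing the data. For *Meg3* with PDGF, Meg3-209 gave 0.32 ± 0.06 (adjusted p = 1.55e-05), while Meg3-204 gave -0.02 ± 0.16 (adjusted p = 0.929) and Meg3-205 gave -0.12 ± 0.24 (adjusted p = 0.762). With rapamycin, Meg3-205 gave 0.81 ± 0.24 (adjusted p = 0.00652), Meg3-204 gave 0.48 ± 0.16 (adjusted p = 0.0179) and Meg3-209 gave 0.19 ± 0.06 (adjusted p = 0.0161). *Rian* transcripts lay on both sides of 0 with PDGF, at -0.22 ± 0.32 for Rian-201, 0.88 ± 0.36 for Rian-203 and 0.63 ± 0.27 for Rian-209, none called by edgeR (adjusted p = 0.646, 0.0504 and 0.0694). Of the *Airn* transcripts, Airn-205 was lower with PDGF (-0.77 ± 0.25, adjusted p = 0.0134) and higher with rapamycin (0.69 ± 0.26, adjusted p = 0.0410), and Airn-201 gave -0.25 ± 0.27 (adjusted p = 0.522) and 0.62 ± 0.27 (adjusted p = 0.0819). Differences between transcripts of a gene were not tested.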
